A study of Mus musculus with 12 samples.

Results

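The genes described here are 8 that mark medium spiny neurons, the principal neurons of the striatum: Adora2a, Drd1, Drd2, Ppp1r1b, Penk, Tac1, Rgs9 and Syndig1l. They were chosen by symbol from the 47069 genes of a read count table and an FPKM table (fragments scaled to gene length and library total), and all 8 were found. They were read against Slc17a7, which encodes the vesicular glutamate transporter of cortical excitatory neurons, to see which brain region the tissue held. Their levels in these libraries were known when they were chosen, so the levels are given as a description and no test result is reported for them or for Slc17a7.

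The libraries come from B16 F1 tumors, a pigmented mouse melanoma line, grown in the brain of C57BL/6 mice and taken at day 9 after 100000 cells were implanted. There were 4 groups of 3 biological replicates, called here by the tumors a mouse carried and by the antibody it received. They were therapy (anti-PD-1 plus anti-CTLA-4) with both an intracranial and an extracranial tumor, IgG control antibody with both tumors, therapy with the intracranial tumor only, and IgG with the intracranial tumor only. All groups share the brain implant, and no tumor-free brain was analysed. The coordinates of the implant, the site of the extracranial tumor, the age and sex of the mice and the amount of adjoining brain taken were not given in the sources used here.

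Medium spiny neurons are GABA-releasing cells that integrate cortical, thalamic and dopamine input. Cells of the direct pathway carry the D1 dopamine receptor and make substance P, and cells of the indirect pathway carry the D2 dopamine receptor and an adenosine receptor, the product of Adora2a, and make enkephalin. Both kinds use DARPP-32 and the regulator RGS9 to shape the intracellular response to dopamine.

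On the GRCm38 build, with coordinates from a GENCODE annotation, all 8 are protein-coding genes. The receptor genes lie at chr10:75316877-75334784 (Adora2a, ENSMUSG00000020178, plus strand), chr13:54051183-54055705 (Drd1, ENSMUSG00000021478, minus strand) and chr9:49340627-49408177 (Drd2, ENSMUSG00000032259, plus strand). The neuropeptide genes lie at chr4:4133531-4138819 (Penk, ENSMUSG00000045573, minus strand) and chr6:7554879-7565834 (Tac1, ENSMUSG00000061762, plus strand). The signalling genes lie at chr11:98348404-98357796 (Ppp1r1b, ENSMUSG00000061718, plus strand), chr11:109225355-109298129 (Rgs9, ENSMUSG00000020599, minus strand) and chr12:84677277-84698831 (Syndig1l, ENSMUSG00000071234, minus strand). Slc17a7 lies at chr7:45163949-45176142 (ENSMUSG00000070570, plus strand). Ppp1r1b and Penk overlap a transcript on the other strand, with 2 and 1 reads in all 12 libraries. Strand use in counting was not given in the sources used here.

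Promoters are shown so that the sequences of the members can be compared, and their part in the levels was not tested. RefSeq (GRCm38.p6) gave one for 4 of the 8 members, Drd1, Drd2, Tac1 and Rgs9, and for Slc17a7, and none is shown for Adora2a, Ppp1r1b, Penk and Syndig1l. Each line holds the 250 bases before the RefSeq start, read 5′ to 3′ on the gene's strand. RefSeq starts differ from the GENCODE coordinates above. The windows of Tac1 and Drd1 reach into the genes as given there, and those of Drd2, Rgs9 and Slc17a7 end short of them. Capitals mark TGACGTCA (the cAMP response element), TGCGTCA (the core of an element known from the Penk enhancer), GGGCGG (the GC box) and TATAAA (the TATA box), searched on both strands, so that GGGCGG on the other strand reads CCGCCC.
Drd1 (chr13:54055659-54055908, minus strand): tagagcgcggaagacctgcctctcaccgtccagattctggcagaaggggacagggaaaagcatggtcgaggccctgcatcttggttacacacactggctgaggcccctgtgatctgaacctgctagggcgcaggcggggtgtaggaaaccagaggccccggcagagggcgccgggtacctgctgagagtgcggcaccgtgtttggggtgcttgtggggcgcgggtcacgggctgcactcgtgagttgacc
Drd2 (chr9:49340153-49340402, plus strand): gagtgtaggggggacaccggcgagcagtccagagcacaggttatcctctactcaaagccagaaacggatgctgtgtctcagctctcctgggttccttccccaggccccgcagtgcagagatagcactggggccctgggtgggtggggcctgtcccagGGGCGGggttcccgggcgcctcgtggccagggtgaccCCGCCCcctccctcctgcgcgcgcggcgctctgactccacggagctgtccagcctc
Tac1 (chr6:7554811-7555060, plus strand): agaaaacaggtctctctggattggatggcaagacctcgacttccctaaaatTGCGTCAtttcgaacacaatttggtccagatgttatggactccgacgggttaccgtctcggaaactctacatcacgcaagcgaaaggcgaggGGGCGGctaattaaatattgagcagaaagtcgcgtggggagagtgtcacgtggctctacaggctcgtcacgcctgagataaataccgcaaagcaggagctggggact
Rgs9 (chr11:109298182-109298431, minus strand): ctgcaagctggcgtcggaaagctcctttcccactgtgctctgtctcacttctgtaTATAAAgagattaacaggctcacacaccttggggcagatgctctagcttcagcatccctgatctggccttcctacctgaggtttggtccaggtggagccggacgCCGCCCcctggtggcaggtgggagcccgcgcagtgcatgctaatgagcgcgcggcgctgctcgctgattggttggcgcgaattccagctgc
Slc17a7 (chr7:45163671-45163920, plus strand): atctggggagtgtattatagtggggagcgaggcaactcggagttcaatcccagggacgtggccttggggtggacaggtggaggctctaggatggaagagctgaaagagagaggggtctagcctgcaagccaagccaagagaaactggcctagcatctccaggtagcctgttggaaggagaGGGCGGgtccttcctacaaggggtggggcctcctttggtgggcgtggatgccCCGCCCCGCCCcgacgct

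Tac1 held TGCGTCA 199 bases before its RefSeq start and a GC box 107 bases before it, the GC box inside the gene by its GENCODE coordinates. Over all 32851 RefSeq promoters of this length, 1.75% held TGCGTCA, 32.7% a GC box, 12.4% TATAAA and 1.55% TGACGTCA. Drd2 held a GC box on each strand, the nearer 56 bases before the start, and Rgs9 held TATAAA at 195 bases and a GC box at 91 bases. Slc17a7 held 3 GC boxes, of which a pair overlaps, the nearest 13 bases before the start. Drd1 held none of the searched letters in this window. A match describes the sequence only, and no match says only that these letters are not in this window.

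Library totals ran from 18427495 to 22294182 reads. The tumor was present in every library, since 6 melanocyte genes (Pmel, Dct, Tyr, Tyrp1, Mlana and Slc45a2) summed to 20309 to 29053 CPM (counts scaled to the library total). Replicate 2 of IgG with both tumors stood apart from its group. Its 8 pan-neuronal genes summed to 1.63 FPKM, against 76.3 and 121.6 FPKM in replicates 1 and 3, and its sample name in the labels ends in another suffix, whose meaning is not given. Group means of ratios, the members' fold changes of therapy over IgG with both tumors, and counts of calls that change without this library are therefore also given without it.

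The 8 genes were highest in therapy mice with both tumors and lowest in therapy mice with the intracranial tumor only. Summed over the 8, they reached 67.8, 27.7 and 63.0 FPKM in therapy mice with both tumors and 8.26, 1.69 and 21.2 FPKM in IgG mice with both tumors. In mice with the intracranial tumor only they reached 4.29, 2.78 and 2.31 FPKM under therapy and 31.98, 10.8 and 17.2 FPKM under IgG. The therapy libraries of both tumor settings did not overlap in this sum, and they moved in opposite directions relative to their IgG groups, while the IgG groups overlapped. In dissected tissue, fewer cells of a type and less RNA per cell cannot be told apart.

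**Figure D1:**
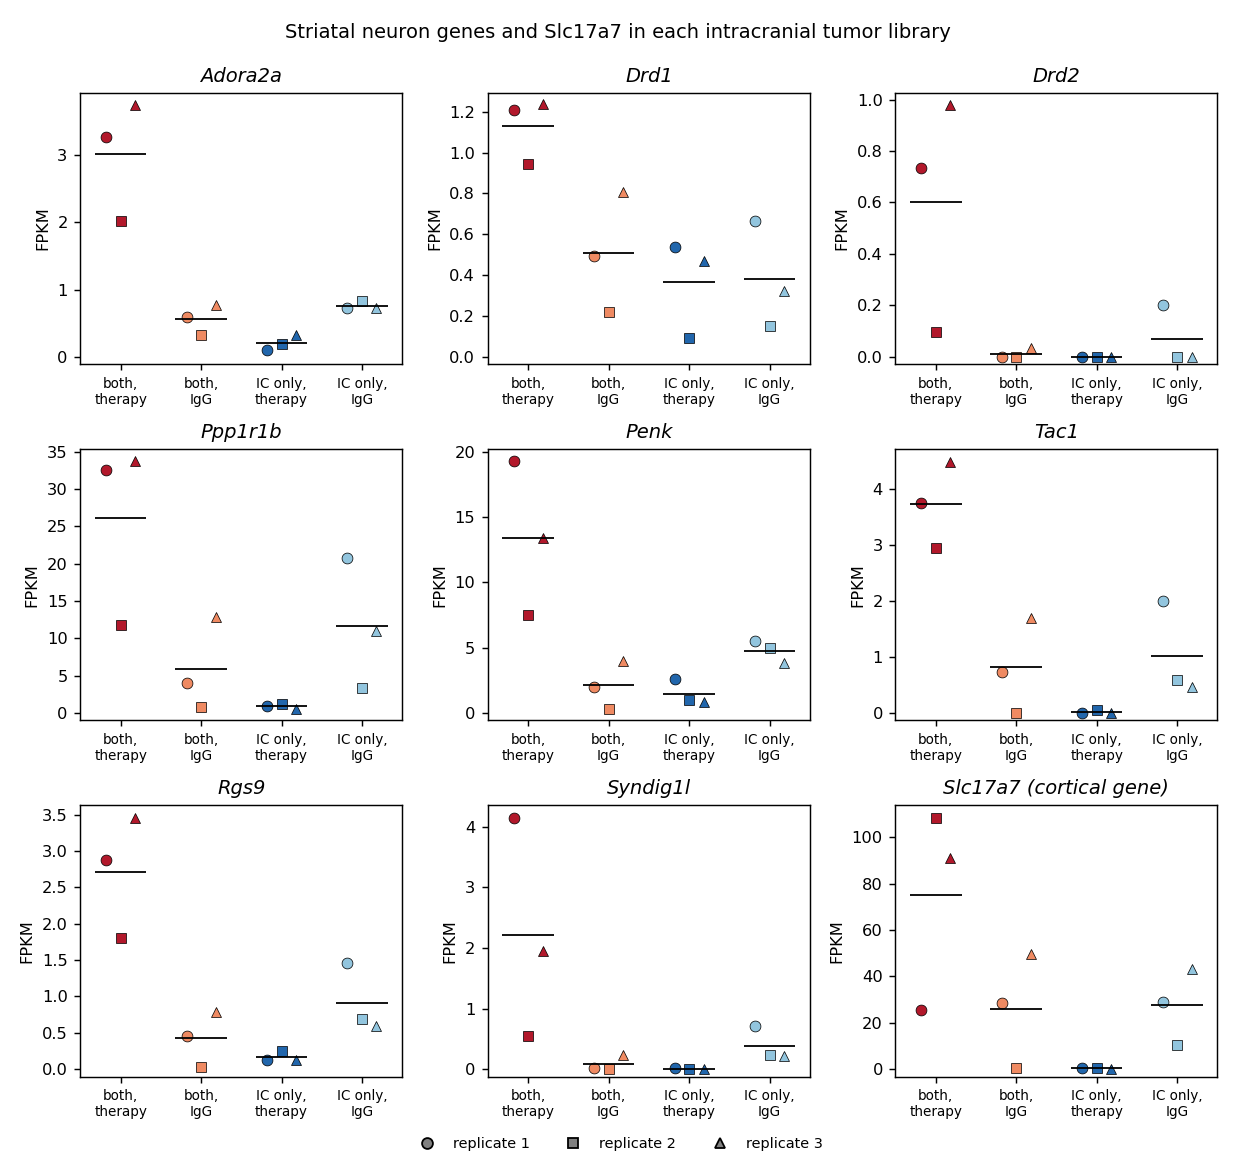
FPKM (vertical axis, linear, own scale per gene) of the 8 medium spiny neuron genes and of Slc17a7 in each of the 12 libraries; symbols mark replicates 1 to 3, the horizontal line is the group mean, "both" stands for both tumors and "IC only" for the intracranial tumor only. All 8 genes have their highest value in a therapy library of mice with both tumors, while for Slc17a7 replicate 1 of that group, at 25.4 FPKM, lies below its other two libraries at 108.5 and 90.9 FPKM.

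Adora2a, the adenosine receptor gene of the indirect pathway, had 3.27, 2.02 and 3.75 FPKM in therapy mice with both tumors and 0.593, 0.325 and 0.776 FPKM in IgG mice with both tumors. With the intracranial tumor only it had 0.107, 0.187 and 0.319 FPKM under therapy and 0.719, 0.823 and 0.728 FPKM under IgG. All 3 therapy libraries lay above the IgG libraries with both tumors and below them with the intracranial tumor only. The log2 fold change of therapy over IgG was 2.41 ± 0.42 with both tumors and -1.82 ± 0.44 with the intracranial tumor only (± SE, n = 3 per group).

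Drd2, the D2 receptor gene, was the lowest of the 8, at 24, 3 and 33 reads (0.734, 0.0979 and 0.978 FPKM) in therapy mice with both tumors and 0, 0 and 1 reads in IgG mice with both tumors. It had no read in any of the 3 therapy libraries with the intracranial tumor only, where a count of 0 allows up to 0.105, 0.102 and 0.0869 FPKM (3 reads), and 6, 0 and 0 reads under IgG. It did not pass the filter on low counts, so it has no fitted value. The 60 reads of therapy mice against 1 read of IgG mice with both tumors gave a ratio of 58.0 per read sequenced, with a 95% exact interval of 10.02 to 2329 that covers counting error only. Against the intracranial-only therapy group the 60 reads were at least 19.1-fold higher, with 3 reads over the group as the floor.

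Drd1, the D1 receptor gene, had the fitted changes nearest to 0 among the 7 members fitted, in 3 of the 4 comparisons of groups. It had 1.21, 0.947 and 1.24 FPKM in therapy mice with both tumors and 0.495, 0.220 and 0.807 FPKM in IgG mice with both tumors. It had 0.537, 0.0895 and 0.471 FPKM under therapy with the intracranial tumor only, against 0.664, 0.148 and 0.323 FPKM under IgG. The first group lay above the other 3, which overlapped one another. Its log2 fold change of therapy over IgG was 1.16 ± 0.67 with both tumors and -0.01 ± 0.68 with the intracranial tumor only. In those intracranial-only therapy libraries Drd1 kept 35, 6 and 37 reads, while the pan-neuronal gene Snap25, which encodes a synaptic fusion protein, had 39, 7 and 11 reads there and 1370, 483 and 1647 under IgG.

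Tac1, which encodes the precursor of substance P, had 3.75, 2.95 and 4.49 FPKM in therapy mice with both tumors and 0.731, 0 and 1.70 FPKM in IgG mice with both tumors. It had 0, 1 and 0 reads under therapy with the intracranial tumor only and 41, 12 and 9 reads under IgG. Therapy and IgG libraries did not overlap in either setting. The log2 fold change with both tumors was 2.21 ± 0.97. The single read under therapy gave a ratio to IgG of 0.0153 in intracranial-only mice (95% exact interval 0.0004 to 0.0886).

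Penk, which encodes proenkephalin, had 19.3, 7.46 and 13.4 FPKM in therapy mice with both tumors and 2.01, 0.312 and 4.00 FPKM in IgG mice with both tumors. With the intracranial tumor only it had 2.59, 0.970 and 0.868 FPKM under therapy and 5.47, 5.00 and 3.85 FPKM under IgG. Neither pair of groups overlapped, and therapy libraries with the intracranial tumor only still held 52, 20 and 21 Penk reads. The log2 fold changes of therapy over IgG were 2.67 ± 0.73 with both tumors and -1.65 ± 0.71 with the intracranial tumor only.

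Ppp1r1b, which encodes the phosphatase inhibitor DARPP-32, had the highest group mean of the 8 in FPKM in 3 of the 4 groups, all but therapy with the intracranial tumor only, where Penk was higher. It had 32.6, 11.8 and 33.7 FPKM in therapy mice with both tumors and 3.95, 0.813 and 12.9 FPKM in IgG mice with both tumors. It had 0.908, 1.24 and 0.527 FPKM under therapy with the intracranial tumor only, against 20.8, 3.28 and 11.03 FPKM under IgG. With both tumors the therapy and IgG libraries overlapped, since therapy replicate 2 (11.8) lay below IgG replicate 3 (12.9), and with the intracranial tumor only they did not. The log2 fold change of therapy over IgG was 2.16 ± 0.87 with both tumors and -3.67 ± 0.96 with the intracranial tumor only.

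Rgs9, which encodes a protein that speeds the shut-off of G protein signals, had 2.87, 1.80 and 3.46 FPKM in therapy mice with both tumors and 0.460, 0.0230 and 0.784 FPKM in IgG mice with both tumors. Under therapy with the intracranial tumor only it had 0.128, 0.249 and 0.128 FPKM, against 1.45, 0.692 and 0.592 FPKM under IgG. Syndig1l, which encodes a transmembrane relative of a synapse differentiation protein, had 4.15, 0.546 and 1.95 FPKM in therapy mice with both tumors and 0.0194, 0 and 0.228 FPKM in IgG mice with both tumors. Syndig1l had 1, 0 and 0 reads under therapy with the intracranial tumor only and 34, 11 and 10 reads under IgG. For both genes the therapy libraries lay above the IgG libraries with both tumors and below them with the intracranial tumor only. Their log2 fold changes with both tumors were 2.69 ± 0.78 for Rgs9 and 4.73 ± 1.14 for Syndig1l, and that of Rgs9 with the intracranial tumor only was -2.38 ± 0.82. Within therapy mice with both tumors, Drd2 and Syndig1l spread most, the highest library at 9.98 and 7.60 times the lowest, and Drd1 spread least, at 1.31 times.

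In order of mean level in therapy mice with both tumors, the members ran from Ppp1r1b (26.1 ± 12.3 FPKM, mean ± SD, n = 3) and Penk (13.4 ± 5.90) through Tac1 (3.73 ± 0.771), Adora2a (3.01 ± 0.895), Rgs9 (2.71 ± 0.843) and Syndig1l (2.21 ± 1.82) to Drd1 (1.13 ± 0.160) and Drd2 (0.603 ± 0.454). Neighbours in this order lay within 1 SD of one another from Tac1 to Syndig1l, so their order is not resolved by 3 libraries. Across groups, 7 of the 8 had the same order of mean levels, with therapy and both tumors first, then IgG with the intracranial tumor only, IgG with both tumors, and therapy with the intracranial tumor only. Drd1 had the IgG groups the other way round. These means include replicate 2 of IgG with both tumors, where Tac1 had 0 FPKM against 0.731 and 1.70 FPKM in replicates 1 and 3. The fitted change of Tac1 between the IgG groups turned sign in 2 of 19 alternatives, so their order is not resolved for Tac1. Libraries of both IgG groups overlapped for all 8 members, and IgG with both tumors overlapped therapy with the intracranial tumor only for all but Adora2a.

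Of the 8 members, 7 passed the filter on low counts and were fitted. Some, such as Tac1 and Syndig1l, passed only through the groups where they were high. Groups did not overlap for 6 of the 7 as higher under therapy with both tumors (background 17.9%) and for 6 of the 7 as lower with the intracranial tumor only (background 14.4%), and for 7 of the 7 as higher with both tumors than with the intracranial tumor only under therapy (background 31.4%). These counts describe genes chosen with these contrasts in view, and nothing is read from them. Without replicate 2 of IgG with both tumors, the log2 fold change of therapy over IgG with both tumors was 2.15 for Adora2a, 0.81 for Drd1, 1.65 for Ppp1r1b, 2.17 for Penk, 1.63 for Tac1, 2.14 for Rgs9 and 4.17 for Syndig1l, all of the same sign as with it.

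The cortical gene Slc17a7 shared the low levels of intracranial-only therapy, but not the order of libraries within therapy mice with both tumors. It had 25.4, 108.5 and 90.9 FPKM in therapy mice with both tumors and 28.4, 0.297 and 49.7 FPKM in IgG mice with both tumors. With the intracranial tumor only it had 0.589, 0.304 and 0.229 FPKM under therapy and 29.2, 10.3 and 43.4 FPKM under IgG. Therapy and IgG libraries overlapped with both tumors, where replicate 1 of the therapy mice lay below replicates 1 and 3 of the IgG mice.

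Reads of Slc17a7 and of most of the 8 genes were found together in every library, with up to 3 of the 8 at 0 reads in a library. Which cells they came from was not tested. In the 8 libraries other than intracranial-only therapy and replicate 2 of IgG with both tumors, the ratio of the summed 8 genes to Slc17a7 ran from 0.255 to 2.67, and Slc17a7 was the higher in 5 of the 8. The ratio was 2.67, 0.255 and 0.693 in therapy mice with both tumors and 0.291 and 0.428 in replicates 1 and 3 of IgG mice with both tumors. It was 1.10, 1.04 and 0.397 in IgG mice with the intracranial tumor only. These groups overlapped, so the balance of striatal and cortical genes differed between replicates by as much as between groups. In the other 4 libraries, where both quantities were low, it ran from 5.56 to 9.72. Sums of FPKM over genes are not numbers of cells, and no normal striatum or cortex was measured to set the scale.

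**Figure D2:**
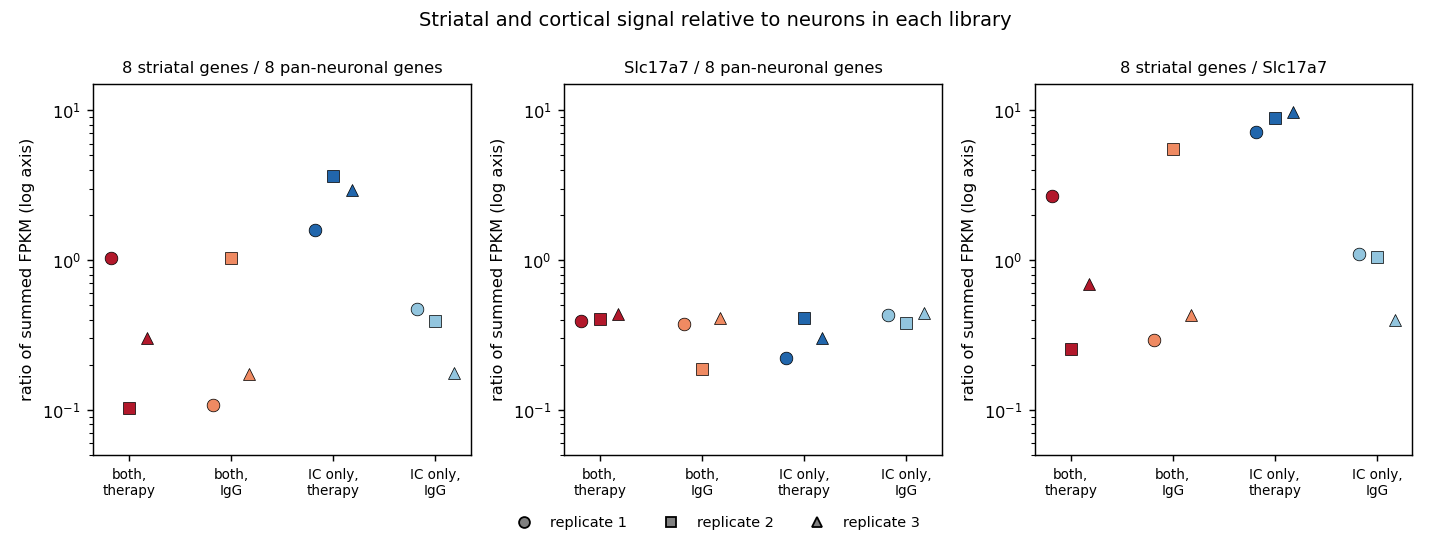
Ratios of summed FPKM on a log axis in each of the 12 libraries: the 8 medium spiny neuron genes over 8 pan-neuronal genes, Slc17a7 over the same pan-neuronal genes, and the 8 genes over Slc17a7. In the 8 libraries other than intracranial-only therapy and replicate 2 of IgG with both tumors, the middle panel spans 0.373 to 0.441, while the left panel spans 0.104 to 1.04.

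Set against 8 genes that all neurons use (Snap25, Syt1, Syn1, Rbfox3, Nefl, Nefm, Celf4 and Stmn2), Slc17a7 varied less between libraries than the 8 genes did. This ratio was chosen after the data were seen. Its ratio to their sum ran from 0.373 to 0.441 in those 8 libraries, the highest 1.18 times the lowest, and from 0.187 to 0.413 in the other 4. The ratio of the 8 medium spiny neuron genes to the same sum ran from 0.104 to 1.04, the highest 10.01 times the lowest. On the log2 scale this ratio averaged -1.65 ± 1.66 in therapy mice with both tumors, -1.89 ± 1.72 in IgG mice with both tumors and -1.65 ± 0.76 in IgG mice with the intracranial tumor only (SD, n = 3 each). Without replicate 2, IgG mice with both tumors averaged -2.86 ± 0.49 (SD, n = 2), so the order of these means rests on that library. In intracranial-only therapy it averaged 1.37 ± 0.62, where the pan-neuronal sum was 2.69, 0.752 and 0.780 FPKM.

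Replicates 1 and 2 of the therapy mice with both tumors differed in the 8 genes and in the cortical genes in opposite directions. All 8 members were higher in replicate 1 than in replicate 2, by a median of 1.03 on the log2 scale. All 10 cortical excitatory genes were lower in replicate 1, with a median of -2.11, as were all 8 pan-neuronal genes (-1.91), all 5 interneuron genes with at least 20 reads over both libraries (-1.65) and all 5 astrocyte genes (-0.69). All 4 oligodendrocyte genes were higher in replicate 1 (median 1.17), 5 of 6 melanocyte genes were (0.18), and the median over 15458 genes was 0.02. Other lists of medium spiny neurons did not follow the 8 genes as a whole: 7 of the 11 other medium spiny neuron genes were higher in replicate 1 and 4 lower (median 0.12), as were 4 and 6 of 10 transcription factors of the lineage (-0.18) and 1 and 2 of 3 direct pathway genes (-1.50). All 3 genes of GABA synthesis and transport (Gad1, Gad2 and Slc32a1) were lower in replicate 1 (-1.36). This compares 2 libraries and has no replicate of its own. The interneuron genes here (Pvalb, Sst, Npy, Nos1 and Lhx6) mark cells of cortex as well as striatum. Genes of the striatal cholinergic interneuron were near 0, with Chat, which makes acetylcholine, at 4, 0 and 6 reads in therapy mice with both tumors and 2 reads in all 9 other libraries.

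**Figure D3:**
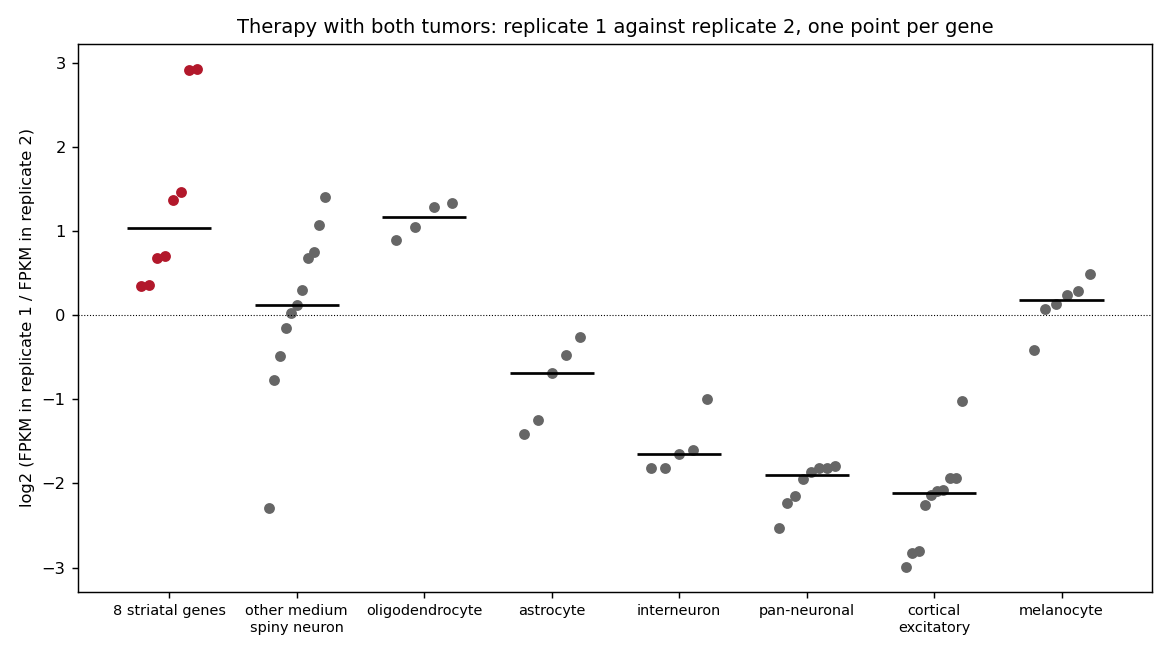
Log2 ratio of FPKM in replicate 1 over replicate 2 of therapy mice with both tumors, 1 point per gene with at least 20 reads over both libraries, by gene list; the horizontal lines are list medians. The 8 medium spiny neuron genes (red) and the oligodendrocyte genes lie above 0, and the interneuron, pan-neuronal and cortical genes lie below 0.

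Single genes of these lists lay on both sides. Scn4b, a sodium channel subunit gene, had 3.76, 1.42 and 3.42 FPKM in these 3 libraries. Gpr6, a receptor gene of the indirect pathway, had 16, 1 and 26 reads, and Six3, a transcription factor gene of the same lineage, had 23, 0 and 23. These 3 were lower in replicate 2 than in replicate 1, as the members were, while Chrm4, a muscarinic receptor gene of the direct pathway, and Sp9, a transcription factor gene of the indirect pathway, stood at 0.35 and 0.50 times replicate 2 in replicate 1. Pdyn, the prodynorphin gene of the direct pathway, had 1.29, 6.33 and 4.01 FPKM, the order seen for Slc17a7. These genes were picked for this description after their values were seen.

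Drd1, of the direct pathway, and Penk and Adora2a, of the indirect pathway, had reads in all 12 libraries. Penk was the largest part of the indirect sum in every library but replicate 2 of IgG with both tumors. Whether these reads came from neurons of either pathway was not tested. The summed FPKM of Drd1 and Tac1 (direct) was below that of Drd2, Penk and Adora2a (indirect) in all 12 libraries, with ratios from 0.128 to 0.523. The log2 ratio averaged -1.73 ± 0.47 in therapy mice with both tumors, -1.17 ± 0.29 in IgG mice with both tumors, -2.20 ± 0.83 with therapy and the intracranial tumor only, and -2.25 ± 0.89 with IgG and the intracranial tumor only (SD, n = 3 each). The 4 groups overlapped, and without replicate 2 IgG mice with both tumors averaged -1.01 ± 0.10 (n = 2). The direction depends on the summary in the IgG groups. When log2(FPKM + 0.01) was averaged over genes, where Drd2 at 0 reads weighs as much as Penk, the mean was -0.29 for therapy and 0.50 for IgG with both tumors, and -0.90 for therapy and 0.17 for IgG with the intracranial tumor only. Penk and Adora2a also kept reads where pan-neuronal reads were few, and Adora2a is known from T cells as well as from neurons. Summed over 8 T cell genes, T cell signal was 48.2 to 98.9 CPM in therapy mice with both tumors, 2.08 to 16.5 CPM in IgG mice with both tumors, 2.16 to 12.02 CPM with therapy and the intracranial tumor only, and 1.46 to 22.6 CPM with IgG and the intracranial tumor only. Its part in the Adora2a level was not tested.

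Tests were run on genes other than the members and Slc17a7. Their lists were also chosen with earlier results of these data known, so the calls are not an independent check. Of 11 other medium spiny neuron genes (Pde10a, Adcy5, Gng7, Gnal, Rasd2, Pde1b, Scn4b, Arpp21, Rarb, Rxrg and Pdyn), 8 were higher and 0 lower in therapy mice with both tumors than in therapy mice with the intracranial tumor only (edgeR's quasi-likelihood test, Benjamini-Hochberg adjusted over 15925 genes, n = 3 per group). The background in this comparison was 24.4% higher and 21% lower. The median log2 fold change of the 11 was 3.23, against 0.03 over all genes, and the same with Pdyn, which had 0 reads in the second group, set at its bound of at least 86.5-fold (3 reads over the group). Adcy5, the adenylyl cyclase that dopamine receptors act on in these cells, rose with a log2 fold change of 5.35 ± 0.87 (edgeR adjusted p = 0.00455). Gnal, the olfactory-type G protein that couples the receptors made from Drd1 and Adora2a, rose with 3.23 ± 0.60 (edgeR adjusted p = 0.00455). Rarb and Rxrg, retinoid receptors of the striatal lineage, rose with 1.14 ± 0.29 and 1.64 ± 0.52. Pde10a (0.44 ± 0.29), Gng7 (0.38 ± 0.17) and Rasd2 (0.31 ± 0.36) did not pass. In FPKM, Gng7 ran from 21.2 to 24.5 in therapy mice with both tumors and from 14.4 to 18.5 in therapy mice with the intracranial tumor only, a level kept where Tac1, Syndig1l and Drd2 had 1, 1 and 0 reads in all.

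Other lists of brain and immune cells moved in this comparison too, whose background was 24.4% higher and 21% lower. All 8 pan-neuronal genes, 9 of 9 cortical genes other than Slc17a7, all 4 oligodendrocyte genes, all 5 astrocyte genes, 6 of 6 macrophage and microglia genes and 7 of 8 T cell genes were higher in therapy mice with both tumors, and 0 of 6 melanocyte genes passed in either direction (edgeR, adjusted p below 0.05). Of lists for other brain regions, 2 of 4 thalamus genes (Slc17a6 and Ramp3) were higher, and 0 of 3 tested hippocampus genes and 0 of 2 tested midbrain dopamine genes passed, with 2 and 0 at an unadjusted p below 0.05. The summed pan-neuronal genes ran from 181 to 735 CPM in therapy mice with both tumors, 4.31 to 335 CPM in IgG mice with both tumors, 2.02 to 7.36 CPM with therapy and the intracranial tumor only, and 74.5 to 267 CPM with IgG and the intracranial tumor only. The oligodendrocyte sum ran from 468 to 1135 CPM in therapy mice with both tumors, 150.1 to 574 CPM in IgG mice with both tumors, 145 to 222 CPM with therapy and the intracranial tumor only, and 205 to 415 CPM with IgG and the intracranial tumor only. The part of the amount of brain in the tissue in the changes of medium spiny neuron genes was not tested.

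**Figure D4:**
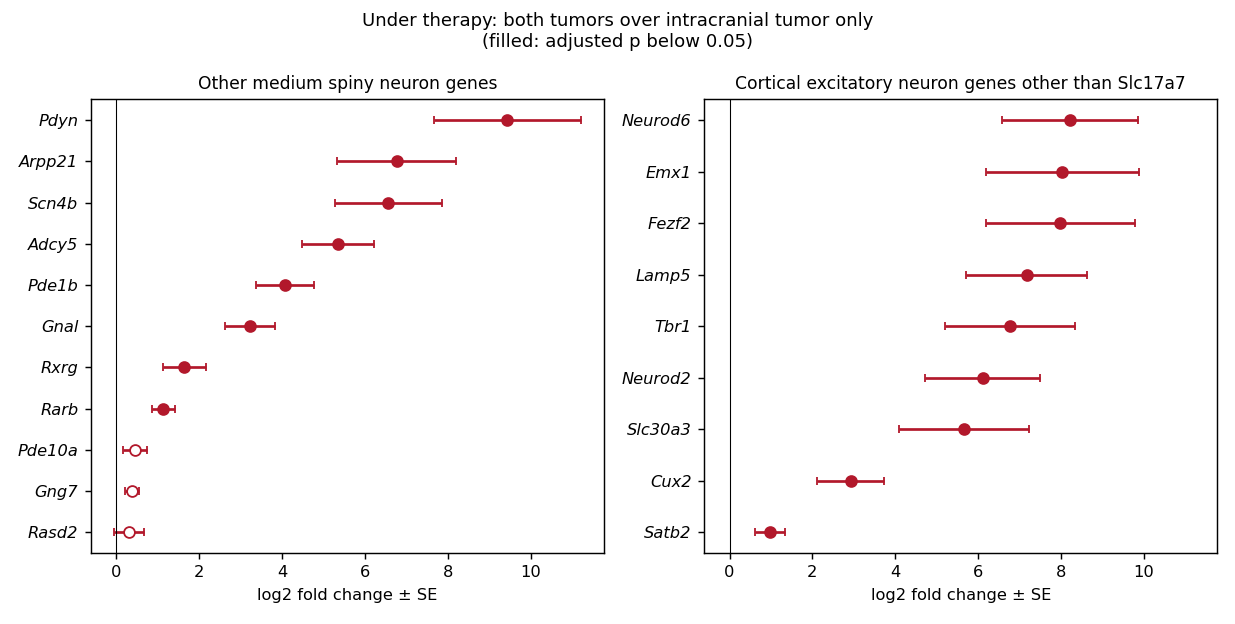
Log2 fold change ± SE (horizontal axis, edgeR, n = 3 per group) of therapy mice with both tumors over therapy mice with the intracranial tumor only, for the 11 other medium spiny neuron genes and for 9 cortical excitatory genes other than Slc17a7; filled points passed an adjusted p below 0.05. In the left panel 8 of 11 genes are filled and in the right panel 9 of 9, all to the right of 0. Pdyn had 0 reads in the second group, so its point depends on the prior count.

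In the other comparisons these 11 genes did not pass edgeR's test. For therapy over IgG with both tumors 0 of 11 passed, against a background of 5.39% in either direction, with 7 at an unadjusted p below 0.05, a median log2 fold change of 1.35 against 0.02 over all genes, and 5 called by DESeq2 and 4 by limma on log2(FPKM + 1), and without replicate 2 of IgG with both tumors 0 genes of the whole table passed. For therapy over IgG with the intracranial tumor only 0 passed, against a background of 0%, with 6 at an unadjusted p below 0.05, a median of -2.25 against -0.03, and 6 called by DESeq2, and edgeR called 6 when replicate 2 of IgG with both tumors was left out. For both tumors over intracranial only under IgG 0 passed, against a background of 0%, also without that replicate, with 1 at an unadjusted p below 0.05 and 0 called by DESeq2, and a median of -0.21 against 0.01.

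The effect of therapy differed between tumor settings for 6 of the 11, by the interaction of therapy and extracranial tumor. These were Adcy5, Gnal, Pde1b, Scn4b, Arpp21 and Pdyn, with differences of log2 fold changes from 3.60 ± 0.81 (Gnal) to 9.05 ± 2.17 (Pdyn), an edgeR adjusted p of 0.0321 for each, and a background of 12.1% higher and 9.93% lower. Pdyn had 272 reads in therapy mice with both tumors and 0 in therapy mice with the intracranial tumor only, so its fitted values depend on the prior count. This call ended, with 0 of the 11 and 0 genes in all, when replicate 2 or 3 of therapy with both tumors, replicate 1 of IgG with both tumors, any replicate of therapy with the intracranial tumor only, or replicate 2 or 3 of IgG with the intracranial tumor only was left out.

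Partners of the members in the cell gave a mixed picture in therapy mice with both tumors over therapy mice with the intracranial tumor only. Over all genes, 24.4% were higher and 21% lower there. Of the direct pathway list, all 3 that were tested were higher (edgeR, log2 fold change ± SE), and Isl1 was too low to test. These were Chrm4 (a muscarinic receptor, 2.98 ± 0.63), Slc35d3 (a transporter needed for D1 receptor traffic in mice, 2.02 ± 0.66) and Pdyn. Pdyn stood 86.5-fold over a floor of 3 reads in therapy mice with the intracranial tumor only. Of the indirect pathway list, Sp9 (4.39 ± 1.16) was higher, at 14, 26 and 62 reads in therapy mice with both tumors. Sp9 passed the filter on low counts only through that group, so its call is a description. Gpr6 was too low to test, at 43 reads in therapy mice with both tumors and 0 in IgG mice with both tumors. Gpr6 had 0 reads with therapy and the intracranial tumor only and 2 with IgG and the intracranial tumor only. Of 9 tested transcription factors of the lineage, 5 were higher and 0 lower: Bcl11b (5.31 ± 1.02), Ikzf1 (2.99 ± 1.06), Rxrg, Rarb and Foxp1 (0.37 ± 0.13). Bcl11b is also known from cortical projection neurons and T cells, and Ikzf1 from lymphocytes. Foxp2 (-0.19 ± 0.35), Ebf1 (0.21 ± 0.39), Meis2 (0.14 ± 0.11) and Zfp503 (0.48 ± 0.22) did not pass. The median log2 fold change of the 9 was 0.48.

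Of 10 signalling partners, 6 were higher and 1 lower in therapy mice with both tumors than in therapy mice with the intracranial tumor only. The background in this comparison was 24.4% higher and 21% lower. Ppp3ca, the calcineurin subunit that removes phosphate from DARPP-32, rose with 1.17 ± 0.26 (edgeR adjusted p = 0.00597), and Gnb5, the partner subunit of RGS9, with 0.40 ± 0.13 (edgeR adjusted p = 0.025). Prkar2b, a regulatory subunit of protein kinase A, fell by 0.80 on the log2 scale (SE 0.19, edgeR adjusted p = 0.00739). Of the receptors for the members' peptides, Oprd1, which binds enkephalin, was higher (edgeR adjusted p = 0.00758), at 15, 64 and 45 reads with both tumors against 0 reads in all 3 intracranial-only therapy libraries, and Tacr1, the substance P receptor, was too low to test at 2, 7 and 14 reads against 0, 2 and 2. The other dopamine receptor genes Drd3, Drd4 and Drd5 were too low to test, with at most 8 reads in a library. Of 6 genes of adenosine signalling, 4 were higher: Adora1 (7.03 ± 1.37), Adora3 (3.96 ± 0.95), Entpd1 (3.05 ± 0.72) and Nt5e (1.89 ± 0.55), of which Entpd1 and Nt5e encode enzymes that turn ATP into adenosine. Adora2b (1.06 ± 0.45) and Ada (-0.05 ± 0.34) did not pass. Adora3 passed the filter on low counts only through therapy mice with both tumors, so its call is a description. Under IgG, no gene of these lists passed for both tumors over intracranial only, and no gene of the table did, with 188 at an unadjusted p below 0.05 and 0 called by DESeq2.

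Likeness was measured across the 12 libraries as the root mean square difference of log2 CPM, each gene centred on its own mean, from the mean of the 8 members. Among 13553 other genes, Prr18 was nearest at 0.43 log2 units, then Myt1 (0.51), Ppp1r14a (0.52), Sept4 (0.53), Tbx1 (0.53), Opalin (0.54), Slc16a9 (0.55), Tmem88b (0.57) and Cldn11 (0.59). Opalin and Cldn11 encode proteins of oligodendrocytes and myelin. Opalin had 75, 29 and 83 reads in therapy mice with both tumors and 3, 0 and 15 reads in IgG mice with both tumors. Opalin had 0 reads in all 3 therapy libraries with the intracranial tumor only and 11, 3 and 2 reads under IgG. Of the 11 other medium spiny neuron genes, Pde1b came in place 27 at 0.64 and Gnal in place 34 at 0.66. Slc17a7, at 2.10, came in place 13147, and Snap25, at 2.07, in place 13105. The measure counts the size of changes as well as their pattern, so a late place does not by itself mean an unlike pattern. The melanocyte gene Pmel, at 1.42, came in place 3836. The 12 libraries include 4 with few pan-neuronal reads, which all these genes share as low points, so likeness is a description.

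The members themselves lay between 0.42 (Rgs9) and 1.05 (Drd1) from their own mean, with Penk at 0.55, Adora2a at 0.59, Ppp1r1b at 0.68, Drd2 at 0.73, Tac1 at 0.73 and Syndig1l at 0.78. Single members had different nearest genes. Pde3b was nearest to Adora2a (0.38), Bcas1 to Ppp1r1b (0.43), Minar2 to Tac1 (0.51), Nipal4 to Drd1 (0.53), Slc16a9 to Rgs9 (0.54), Ppp1r14a to Drd2 (0.62), Hs3st3b1 to Penk (0.63) and Lrrc10b to Syndig1l (0.75). Of the next nearest, Opalin and Cldn11 stood beside Syndig1l, Tmem88b and Syt12 beside Rgs9, Gal3st1 and Nkx6-2 beside Ppp1r1b, and Prr18 beside Penk.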

How the data were processed

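RNA was sequenced from 12 intracranial tumors. The count table deposited by the authors holds raw reads per Ensembl gene. Per the submitters' processing notes, TopHat2 2.0.12, Bowtie2 2.2.3 and HTSeq 0.6.1 were used with GRCm38 (mm10), with no annotation release named. The authors also deposited FPKM values. For all 16062 genes read in every library these equalled the count divided by 1 length and by the library total, within a relative tolerance of 1e-06. Of the identifiers, 46488 matched a symbol and 581 did not.

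Counts were tested with the quasi-likelihood test of edgeR 4.0.16 (R 4.3.3), using TMM, filterByExpr (minimum count 10, minimum total 15) and 4 group means over all 12 libraries. This kept 15925 genes, and the biological coefficient of variation was 33.5%. P-values were adjusted by Benjamini-Hochberg over all genes tested, with a threshold of 0.05. Standard errors are the log2 fold change over the square root of F. Ratios of levels used summed FPKM plus 0.01. Intervals are exact binomial at 95%, and they and floors cover counting error only. Between replicates the chi-square per degree of freedom was 14.7 to 91.5, so no library repeats another. The test was checked on simulated counts with known changes.

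The members, lists and tests were chosen with earlier results of these data known. Named genes were all members and Slc17a7, listed genes past the threshold and the first of each list, and the genes most alike, without unnamed gene models. The gene Gpr52 of the indirect pathway list was not matched and is not used, and 3 genes of other lists are not reported here. DESeq2 1.42.0, limma 3.58.1 on log2(FPKM + 1) and log2(FPKM + 0.1), RLE factors, no filter, a fit on the compared groups alone and leaving out each library were the alternatives.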

Additional observations from a re-analysis of the deposited data

Results flagged for a closer look

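The effect of therapy (log2 fold change over IgG) differed between mice with both tumors and mice with the intracranial tumor only for 7 of the 12 genes examined outside the members, which are the 11 other medium spiny neuron genes and Snap25, by edgeR's test of the interaction, with an adjusted p of 0.0321 for each. Of all 15925 genes tested, 3505 passed. The difference was 5.57 for Adcy5, 3.60 for Gnal, 4.45 for Pde1b, 6.75 for Scn4b, 6.97 for Arpp21 and 9.05 for Pdyn, all medium spiny neuron genes, and 7.35 for the pan-neuronal gene Snap25. All 7 calls were lost when any 1 of several libraries was left out, as given in the report. The pan-neuronal sum was also higher in therapy mice with both tumors than in therapy mice with the intracranial tumor only. Within therapy mice with both tumors, Scn4b and Pde1b were higher in replicate 1 than in replicate 2. Adcy5, Gnal, Arpp21, Pdyn and Snap25 were lower there, as the pan-neuronal genes were. The part of the amount of brain in the tissue was not tested.

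Among the members, every therapy library lay above every IgG library with both tumors and below every IgG library with the intracranial tumor only for 5 genes. Over all 15925 genes, groups did not overlap for 17.9% as higher with both tumors and for 14.4% as lower with the intracranial tumor only. The share of genes with both patterns was not counted, so nothing is read from these 5. The difference between the log2 fold changes was 4.22 for Adora2a, 4.32 for Penk, 7.75 for Tac1, 5.07 for Rgs9 and 10.09 for Syndig1l. No test result is given for these differences, because the members were chosen with these levels known. Tac1 and Syndig1l had 1 read each in therapy mice with the intracranial tumor only, so the size of their differences depends on the prior count.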

How the results depend on the processing

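No paired analysis was possible because the labels give no replicate numbers, and numbers in accession order pair nothing. Depth limits Drd2, Tac1 and Syndig1l, with 0, 1 and 1 reads in therapy mice with the intracranial tumor only, and groups of 3 limit every test. Members kept the sign of their fold changes under all alternatives run, except Drd1 in 8 of 19 for therapy with the intracranial tumor only and Drd1 (1 of 19) and Tac1 (2 of 19) for both tumors over intracranial only under IgG. The 8 other medium spiny neuron genes called between therapy groups stayed at 7 or 8 in number with any library left out.

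The cause of the following changes was not tested. For therapy against IgG with both tumors, 858 genes were called, against 0 with RLE factors, 0 with no filter, 0 in a fit of the compared groups alone, 3133 with DESeq2, 2630 with limma on log2(FPKM + 1), 1759 on log2(FPKM + 0.1) and 56 on log2(FPKM + 1) with no filter, an alternative added after the data were seen. Of the 11 other medium spiny neuron genes, DESeq2 called 5 and limma on log2(FPKM + 1) called 4, against 0 in edgeR. For therapy against IgG with the intracranial tumor only, DESeq2 called 1035 genes and 6 of the 11, the fit of the compared groups alone 839 and 4, and limma without a filter 2, against 0 and 0. For the interaction, limma without a filter called 3 genes and 0 of the 11, against 3505 and 6. With 1 library left out, calls ran from 0 to 2394 for therapy with both tumors, from 0 to 1002 (0 to 6 of the 11, the 6 without IgG replicate 2 of both tumors) for therapy with the intracranial tumor only, from 4710 to 8128 for both tumors under therapy, and from 0 to 4367 (0 to 6 of the 11) for the interaction. The fold change of Snap25 for both tumors over intracranial only under IgG, 0.01, turned to -0.82 and -1.24 with limma on log2(FPKM + 1) and log2(FPKM + 0.1), to -0.82 without a filter, and to between -0.87 and 0.58 with a library left out, and it passed no threshold.

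The log2 ratio of striatal genes to Slc17a7 averaged -0.36 in therapy with both tumors, -0.18 in IgG with both tumors, 3.09 in therapy with the intracranial tumor only and -0.38 in IgG with the intracranial tumor only, and -1.50 in IgG with both tumors without replicate 2. As a mean of log2 values per gene, which weighs low genes like high ones, it was -4.39 in therapy and -4.73 in IgG with both tumors, and -1.64 in therapy and -5.03 in IgG with the intracranial tumor only, and with a pseudocount of 0.1 it was 2.79 in therapy with the intracranial tumor only. Against pan-neuronal genes, the mean of log2 values moved therapy with the intracranial tumor only to 0.077 and IgG with the intracranial tumor only to -2.83. The direct to indirect ratio became -0.29 in therapy and 0.50 in IgG with both tumors, and -0.90 in therapy and 0.17 in IgG with the intracranial tumor only.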
